A study of Mus musculus with 12 samples.

Results

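Bach2-deficient (Bach2KO) and wild-type (WT) CD4+ T cells were compared by RNA sequencing after culture in the induced regulatory T cell (iTreg) condition, with 3 libraries per genotype out of 12 samples in the series. The genes described are those whose mean differed at least 2-fold between genotypes on the log2(FPKM + 0.5) scale, with each library of one genotype above each library of the other. FPKM is the number of sequenced fragments per kb of transcript, scaled to the mapped fragments of the library. Of 23700 loci in the files, 11138 were at least 300 bp long, averaged 0.5 FPKM or more across the 6 libraries and had no failed estimate. Of these, 1656 were at least 2-fold higher in Bach2KO cells (14.9% of the loci tested) and 838 were at least 2-fold lower (7.52%).

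Mice of both genotypes were C57BL/6J. Naive CD4+CD44-CD25-CD62L+ cells were sorted from spleen and lymph nodes and stimulated for 3 days on plate-bound anti-CD3 and anti-CD28 (both at 10 μg/ml) with IL-2 (100 IU/ml) and human TGF-β1 (5 ng/ml). The labels name the genotype Bach2KO without describing its allele, and give neither the age nor the sex of the mice. They do not say whether the 3 libraries of a genotype came from separate animals or cultures, so p-values measure only the spread between these samples, which may be technical. Used beside them were 1 library each of WT cells in the naive, Th1, Th2 and Th17 states, and the Bach2 peaks of 1 chromatin immunoprecipitation (ChIP) library set against 1 input library, both from WT iTreg cells.

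Bach2 is a basic leucine zipper protein of the CNC family that represses transcription. It pairs with small Maf proteins and binds sites that overlap those of AP-1, the Jun and Fos family dimer that T cell receptor signals activate. In CD4+ T cells Bach2 is known for holding back effector differentiation. TGF-β together with IL-2 leads stimulated naive cells to express Foxp3, the transcription factor that defines regulatory T cells, and such cells are called induced Treg cells.

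The gene named by the genotype label was read first. Bach2 (chromosome 4, 32504410 to 32673083, mm9) had 3.91, 3.39 and 4.12 FPKM in Bach2KO libraries, against 17.9, 17.7 and 17.2 FPKM in WT libraries. The 2 genotypes did not overlap, and the log2 difference was −2.08 (SE 0.076, limma with Benjamini-Hochberg adjustment over all loci, adjusted p = 7.8e-07). A level of 3.81 FPKM in Bach2KO and 17.6 FPKM in WT cells was left, and which exons it comes from was not tested.

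The summed FPKM was between 545183 and 553892 in Bach2KO libraries and between 432450 and 437849 in WT libraries. The files give no read totals, and the reads implied by the deposited confidence bounds, over loci with 1 annotated start and taking the upper bound as 2 Poisson SD, came to between 20051992 and 24031253 in Bach2KO libraries and between 18243068 and 19131351 in WT libraries. All 9 T cell markers checked, among them Cd3e, Cd4 and Lck, stood at 139 FPKM or above in every library. Without overlap, Thy1, Cd2 and Cd247 were higher in Bach2KO libraries, and Cd3d, Cd3e, Cd5 and Lck were lower. Thy1 was between 508 and 546 FPKM in Bach2KO and between 203 and 211 FPKM in WT libraries. Cd3g and Cd4 overlapped between genotypes. Foxp3 was lower in Bach2KO libraries than in WT libraries (7.68, 19.7 and 5.81 FPKM in Bach2KO libraries, against 69.6, 66.7 and 81.1 FPKM in WT libraries). Among the other Treg markers checked, Il2ra and Tnfrsf18 were higher. Ikzf4 was lower, with 11.3 to 17.9 FPKM in Bach2KO and 37.8 to 40.2 FPKM in WT libraries. Ctla4 overlapped between genotypes, and Ikzf2 was not tested. Markers of other cells were summed in each library, with B cell and dendritic cell sums overlapping between genotypes. The 14 B cell markers found in the files summed to between 14.9 and 22.9 FPKM in Bach2KO libraries and to 72.8, 12.7 and 39.7 FPKM in WT libraries. The 13 dendritic cell and MHC class II markers summed to between 160 and 190.3 FPKM in Bach2KO libraries and to between 29.7 and 251.3 FPKM in WT libraries. The 14 myeloid markers summed to between 1.53 and 2.44 FPKM in Bach2KO libraries and to between 10.1 and 10.6 FPKM in WT libraries, with Lyz1, Elane, S100a8, S100a9 and Csf3r at 0 in all 6. The 10 CD8, natural killer and gamma-delta T cell markers summed to between 12.9 and 17.7 FPKM in Bach2KO libraries and to between 5.34 and 6.21 FPKM in WT libraries, with Klra8 and Klra4 at 0 in all 6. The 14 mast cell, basophil, erythroid and platelet markers summed to between 4.02 and 5.30 FPKM in Bach2KO libraries and to between 5.38 and 6.37 FPKM in WT libraries, with Fcer1a and Ppbp at 0 in all 6. The part of such cells in the results was not tested. In bulk RNA, fewer cells of a type and less RNA per cell cannot be told apart.

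By limma on all 11138 loci, 4705 were called higher in Bach2KO cells (42.2%) and 3841 lower (34.5%) at an adjusted p under 0.05. Libraries of a genotype resembled each other, with Pearson correlations of log2 values across loci of 0.986 to 0.996, against 0.853 to 0.878 between genotypes (across genes, which are not independent replicates). The balance of directions depends on the scaling. When the libraries were given equal sums, 3311 loci were called higher and 5395 lower, so that 38% of calls were rises instead of 55.1%, and 1228 and 1362 loci were at least 2-fold higher and lower. The median log2 difference of all loci was 0.074 as deposited and −0.18 with equal sums, so each log2 difference given here carries a scaling uncertainty of that order.

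**Figure D1:**
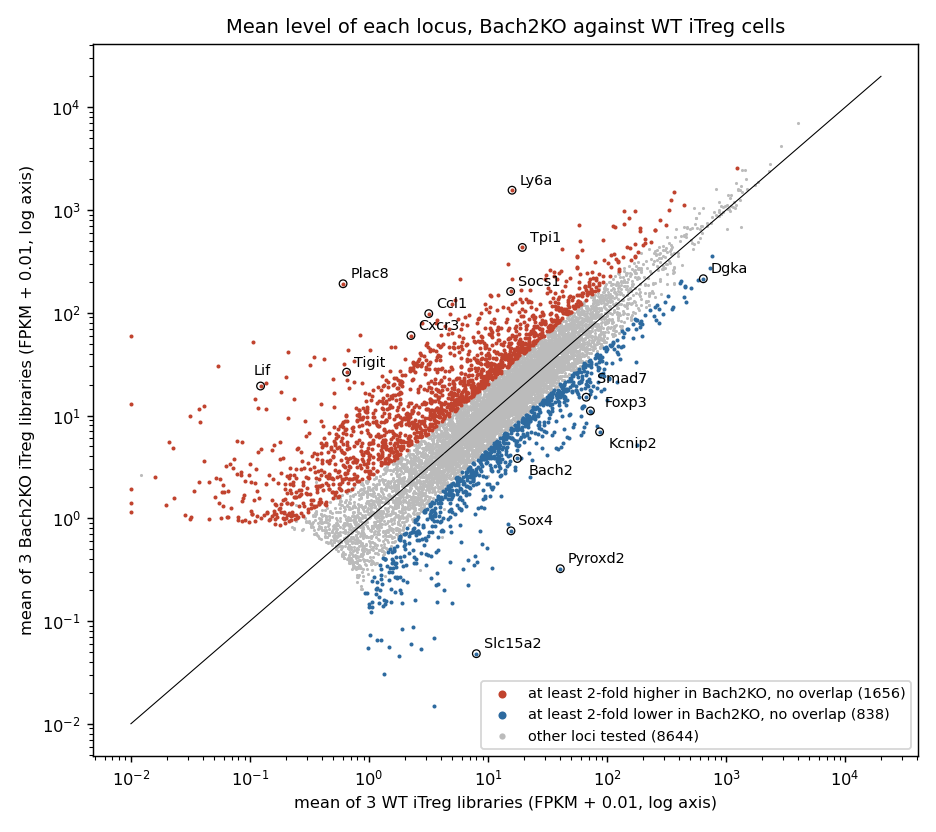
Mean FPKM of each tested locus in the 3 Bach2KO libraries (vertical) against the 3 WT libraries (horizontal), both on log axes with 0.01 added. Red and blue points are the 1656 loci at least 2-fold higher and the 838 at least 2-fold lower in Bach2KO with no overlap between genotypes, grey points the other 8644, and the line marks equal levels. Plac8, Ly6a and Lif stand far above the line, and Pyroxd2, Slc15a2 and Sox4 far below it.

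The 2-fold limit cuts through a continuous range. Suz12, a Polycomb subunit gene, lay just inside it with 59.1 FPKM in Bach2KO and 29.3 FPKM in WT cells, and Prpf31, a splicing factor gene, just outside it with 27.1 FPKM in Bach2KO and 13.1 FPKM in WT cells. Among the falls, Wdr45 (20.2 FPKM in Bach2KO and 40.5 FPKM in WT cells) lay just inside and Lysmd1 (7.84 FPKM in Bach2KO and 16.1 FPKM in WT cells) just outside. Loci that changed had a larger median spread among libraries than all loci, which include them, and the groups were not matched for level. The SD of log2 values had a median of 0.13 among Bach2KO and 0.13 among WT libraries for the rises, and of 0.13 among Bach2KO and 0.076 among WT libraries for the falls, against 0.10 among Bach2KO and 0.070 among WT libraries over all loci. Bach2KO replicate 2 was the highest Bach2KO library in 53.7% of the rises and the lowest in 59.9% of the falls, against 45.4% and 39.8% of all loci.

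Of 30 rises named by size (called, at least 2-fold with no overlap, and a mean of at least 5 FPKM in the higher genotype), 7 encode secreted cytokines or chemokines. Plac8, which encodes a small cysteine-rich protein, had 188, 189 and 198 FPKM in Bach2KO libraries, against 1.03, 0.131 and 0.627 FPKM in WT libraries, the largest log2 difference at 7.54 (SE 0.29, limma adjusted p = 9.0e-07). The Bach2KO values were close to each other, and the WT values lay near 1 FPKM or below. Ly6a, the gene of the surface antigen Sca-1, had 1466, 1732 and 1479 FPKM in Bach2KO libraries, against 18.3, 14.4 and 15.0 FPKM in WT libraries. Its neighbour Ly6i, of the same family of GPI-anchored proteins, had 35.8, 39.3 and 35.7 FPKM in Bach2KO libraries, against 0.504, 0.150 and 0.352 FPKM in WT libraries. The Ly6 genes are close relatives, and reads shared between copies make both values uncertain.

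The cytokine and chemokine genes among these rises were low in every WT library and uneven among the Bach2KO ones. Il9, a cytokine gene of mast cell growth and type 2 inflammation, had 59.7, 20.7 and 73.7 FPKM in Bach2KO libraries, against 0, 0.194 and 0.0929 FPKM in WT libraries. Ccl1, which encodes the ligand of the receptor CCR8, had 97.0, 142 and 55.2 FPKM in Bach2KO libraries, against 2.31, 2.57 and 4.61 FPKM in WT libraries. Bach2KO replicate 2 was the lowest Bach2KO library for Il9 and the highest for Ccl1. Ccl3, an inflammatory chemokine gene, had 41.7, 63.0 and 19.2 FPKM in Bach2KO libraries, against 0.432, 0.110 and 0.0526 FPKM in WT libraries, and again replicate 2 was highest. Lif, a cytokine gene of the IL-6 family, had 14.8, 30.9 and 12.5 FPKM in Bach2KO libraries, against 0.0469, 0.111 and 0.181 FPKM in WT libraries. Il13, a type 2 cytokine gene, had 15.6, 6.65 and 16.8 FPKM in Bach2KO libraries and is given as 0 for each WT library. Replicates 1 and 3 differed too, with 41.7 and 19.2 FPKM for Ccl3. The further genes given next were picked for a large deviation of Bach2KO replicate 2, so they are no independent evidence of a split. Replicate 2 was also low for Il10 (9.79, 2.61 and 13.5 FPKM in the Bach2KO libraries), Batf3 (10.998, 4.88 and 13.8 FPKM) and Aldoc (41.3, 19.2 and 70.8 FPKM), and high for Ifng (10.6, 22.8 and 3.99 FPKM), Foxp3 and Gadd45g (37.2, 62.3 and 28.7 FPKM). These genes were chosen for having no overlap between genotypes, so by that rule no Bach2KO value reached into the WT range.

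Other large rises fell among fatty acid, glycolytic and inhibitory receptor genes. Scd1, a stearoyl-CoA desaturase gene, had 43.4 ± 12.7 FPKM in Bach2KO and 0.658 ± 0.370 FPKM in WT cells (SD, n = 3 each, as for all values given with ±). Fads2, a desaturase gene of polyunsaturated fatty acid synthesis, had 30.8 ± 5.13 FPKM in Bach2KO and 0.309 ± 0.166 FPKM in WT cells. Egln3, a prolyl hydroxylase gene that is itself a target of hypoxia-inducible factor, had 116, 101.4 and 147 FPKM in Bach2KO libraries, against 4.39, 5.03 and 5.42 FPKM in WT libraries. Cdkn1a, the gene of the cyclin-dependent kinase inhibitor p21, had 81.6, 74.1 and 85.0 FPKM in Bach2KO libraries, against 2.65, 5.00 and 3.25 FPKM in WT libraries. Tigit, an inhibitory receptor gene, had 26.4 ± 6.52 FPKM in Bach2KO and 0.638 ± 0.137 FPKM in WT cells. Ttc39c (rise of 4.54) and the receptor genes Gp49a and Lilrb4 (5.11 and 4.83), which are near-identical neighbours, were among the 30 as well.

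The 30 largest falls were genes of varied function, with few secreted factors. Some were neighbours. Sec1, Ntn5, Car11 and Dbp lie between positions 52933057 and 52965573 of chromosome 7. Slc28a2 and Bambi-ps1 lie between positions 122252213 and 122293533 of chromosome 2. Whether neighbours fell independently was not tested. Pyroxd2, an oxidoreductase gene, had 0.392, 0.367 and 0.179 FPKM in Bach2KO libraries, against 40.8, 45.2 and 35.4 FPKM in WT libraries, the largest fall at −5.66 on the log2 scale (SE 0.13, limma adjusted p = 1.7e-07). Kcnip2, which encodes a calcium-binding partner of potassium channels, had 8.002, 6.96 and 5.82 FPKM in Bach2KO libraries, against 88.0, 85.9 and 85.7 FPKM in WT libraries. Both genes were chosen for the size of their fall, and no Bach2KO value of either came near the lowest WT value. Transporter genes included Slc15a2, of oligopeptides (0.0381 ± 0.0229 FPKM in Bach2KO and 7.97 ± 0.130 FPKM in WT cells), and Slc28a2, of nucleosides (14.1 ± 1.65 FPKM in Bach2KO and 99.4 ± 3.90 FPKM in WT cells). Cd55, an inhibitor of complement on the cell surface, had 7.65 ± 0.701 FPKM in Bach2KO and 64.4 ± 5.16 FPKM in WT cells, and its neighbouring copy Daf2 had 1.65 ± 0.257 FPKM in Bach2KO and 12.7 ± 0.640 FPKM in WT cells. Cd72, whose locus overlaps Tesk1, had 4.74 ± 0.589 FPKM in Bach2KO and 38.4 ± 2.09 FPKM in WT cells. Vipr1, a receptor gene for vasoactive intestinal peptide, had 8.57, 6.84 and 7.59 FPKM in Bach2KO libraries, against 52.9, 55.8 and 45.8 FPKM in WT libraries. Pde2a, a cyclic nucleotide phosphodiesterase gene, had 6.01 ± 2.02 FPKM in Bach2KO and 47.5 ± 3.28 FPKM in WT cells. Dbp, a circadian transcription factor gene whose locus overlaps Sphk2, had 8.42 ± 0.662 FPKM in Bach2KO and 66.9 ± 1.58 FPKM in WT cells. St8sia6, a sialyltransferase gene, had 4.88 ± 1.31 FPKM in Bach2KO and 41.2 ± 3.09 FPKM in WT cells, and Dtx4, a Deltex family gene of the Notch pathway, had 0.739 ± 0.122 FPKM in Bach2KO and 8.63 ± 0.801 FPKM in WT cells.

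**Figure D2:**
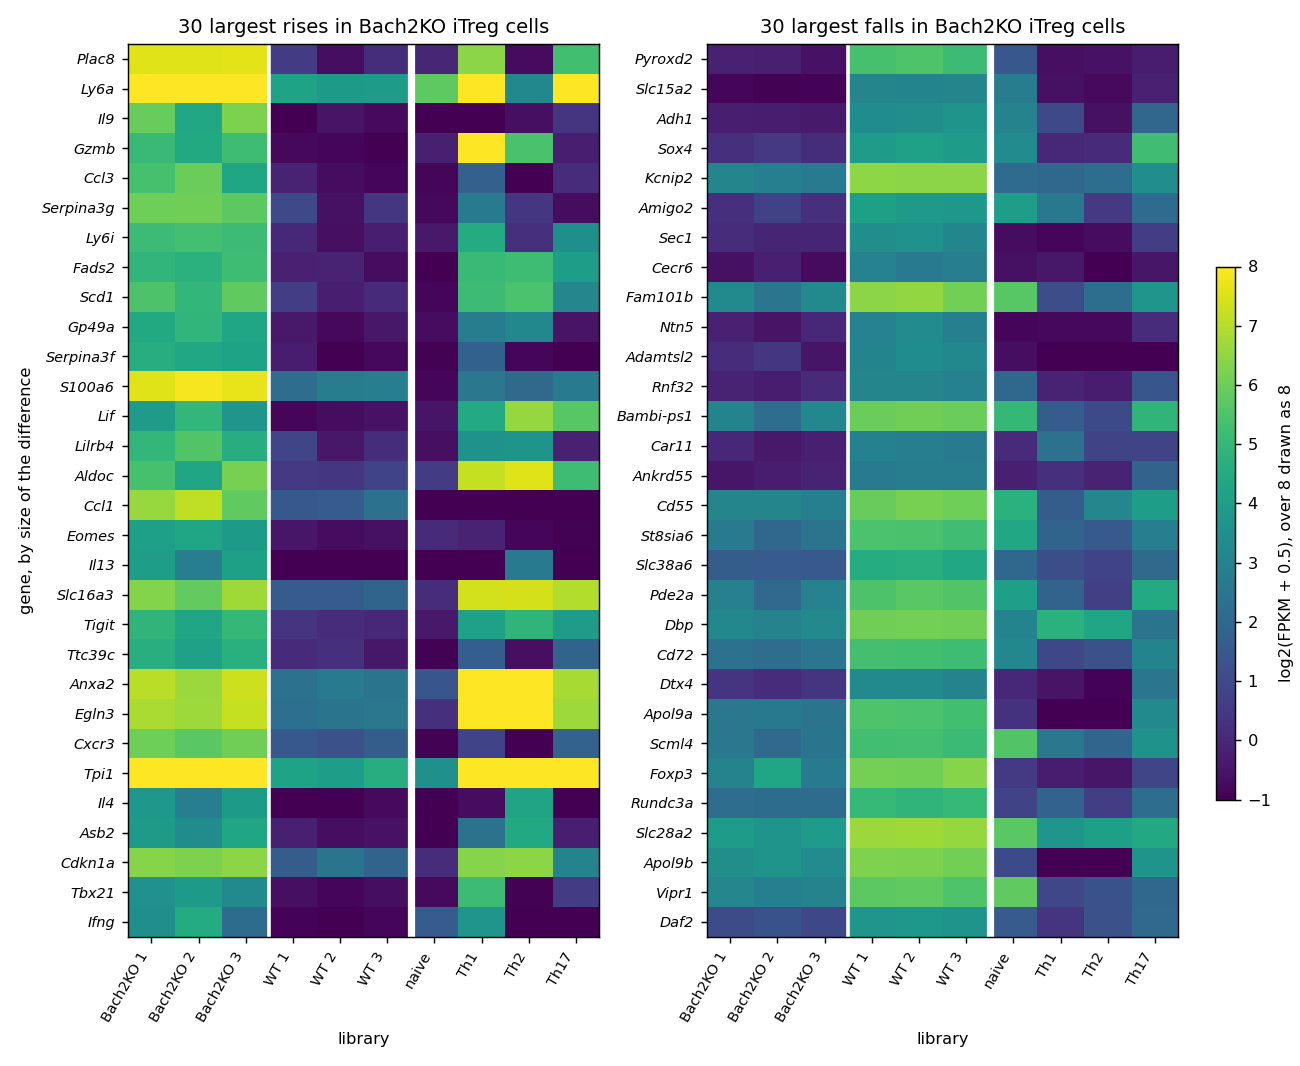
Level of the 30 largest named rises and 30 largest named falls in each library, as log2(FPKM + 0.5) with values over 8 drawn as 8. Columns are the 3 Bach2KO and 3 WT iTreg libraries and the single naive, Th1, Th2 and Th17 libraries. Within a genotype most columns look alike, Bach2KO replicate 2 differs in several cytokine genes and in genes such as Aldoc and Foxp3, and several rises such as Ccl1 and Il9 are dark in all 4 single libraries.

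The DNA under the strongest Bach2 peaks of these genes, chosen by peak score, was searched for the sequence that Bach2 and AP-1 dimers are known to bind. Of the 30 named rises, 24 had a peak summit in the locus or within 10 kb, and 18 of the 30 named falls did, against 58.6% of all loci tested. The best-scored peak held the motif TGAGTCA or TGACTCA, which are the same site on opposite strands, in the window of 50 bases on either side of its summit in 13 of the 24 and in 6 of the 18. These counts are of genes, and a best-scored peak that neighbours share is counted for each. Among the rises Ly6a shared its peak with Ly6i, and Gp49a with Lilrb4. Among the falls Sec1 shared its peak with Ntn5, and Slc28a2 with Bambi-ps1. Distinct windows from 5 of the highest-scored peaks near rises follow, as plus-strand mm9 sequence read 5′ to 3′ with the motif in capitals.
Cdkn1a: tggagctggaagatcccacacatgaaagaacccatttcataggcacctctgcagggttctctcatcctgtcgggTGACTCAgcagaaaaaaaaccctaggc
Ccl1: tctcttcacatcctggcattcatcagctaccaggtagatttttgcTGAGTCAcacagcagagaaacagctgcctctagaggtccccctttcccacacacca
Ccl3: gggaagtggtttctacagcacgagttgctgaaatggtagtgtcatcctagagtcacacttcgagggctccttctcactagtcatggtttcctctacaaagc
Il9: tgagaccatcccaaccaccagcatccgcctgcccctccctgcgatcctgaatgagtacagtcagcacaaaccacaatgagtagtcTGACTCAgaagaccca
Ly6a: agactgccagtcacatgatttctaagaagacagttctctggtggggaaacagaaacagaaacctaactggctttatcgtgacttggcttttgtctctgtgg
These windows are chr17:29219079-29219179, chr11:81988484-81988584, chr11:83453896-83453996, chr13:56578253-56578353 and chr15:74819897-74819997, in the order shown. All 5 lie between protein-coding genes of the annotation (GENCODE vM1). The Cdkn1a window lies 8795 bases upstream of the gene's nearest start, and its peak has a deposited score of 2217 (10 times the −log10 of the peak's p-value), a fold enrichment over local background of 86.3 and 291 tags. The Ccl1, Ccl3 and Il9 windows lie past the 3′ end of their genes, at 1634, 7399 and 2335 bases from the locus. The Ly6a window, which Ly6i shares, and the Ccl3 window hold no match.

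Near the falls, the windows of the 6 highest-scored peaks were read in the same way.
Ankrd55: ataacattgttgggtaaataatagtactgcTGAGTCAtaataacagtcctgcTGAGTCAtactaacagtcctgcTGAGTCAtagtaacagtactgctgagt
Kcnip2: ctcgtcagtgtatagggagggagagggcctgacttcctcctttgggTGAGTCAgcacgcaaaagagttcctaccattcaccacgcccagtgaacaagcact
Scml4: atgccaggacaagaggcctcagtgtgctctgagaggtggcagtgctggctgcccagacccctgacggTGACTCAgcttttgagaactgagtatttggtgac
Apol9b: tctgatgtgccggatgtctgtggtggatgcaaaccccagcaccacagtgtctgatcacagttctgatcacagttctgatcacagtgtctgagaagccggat
Rnf32: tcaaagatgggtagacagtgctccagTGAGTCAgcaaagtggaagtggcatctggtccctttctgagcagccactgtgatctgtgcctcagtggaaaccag
Fam101b: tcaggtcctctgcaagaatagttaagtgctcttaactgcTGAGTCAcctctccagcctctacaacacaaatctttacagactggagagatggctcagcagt
They are chr13:113077450-113077550, chr19:45865208-45865308, chr10:42584703-42584803, chr15:77563901-77564001, chr5:29537801-29537901 and chr11:75829543-75829643. The Ankrd55 peak, with a deposited score of 1886 and 303 tags, lies 1159 bases upstream of a gene that had 0.313 FPKM in Bach2KO and 6.20 FPKM in WT cells, and its window holds 3 matches. The matches lie in near-identical stretches that repeat one after the other along the window. The locus of Ankrd55 and its surroundings within 10 kb held 10 peaks. The Scml4, Apol9b and Rnf32 windows lie in introns of those genes, and the Apol9b window holds no match. Deposited scores of the other 5 peaks were between 179 and 652. A match describes the letters in a window and does not show a bound site.

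Genes of several T cell lineages changed, with Th1 and Th2 genes mostly higher and naive and memory T cell genes mostly lower. The members were chosen with earlier results of these data known, so the counts describe the lists and are no independent evidence. Over all loci tested, 42.2% were called higher and 34.5% lower, and 14.9% and 7.52% were at least 2-fold higher and lower. These shares stand beside the counts of this and the following lists. Genes averaging under 0.5 FPKM in WT libraries passed the filter on low values only through Bach2KO libraries. Il13, Il4, Ifng, Gzmb, Ccl3, Eomes, Tbx21, Il9, Lif, Il10, Batf3, Havcr2 and Tnfrsf8 are among them, and the list is not complete. Likewise genes averaging under 0.5 FPKM in Bach2KO libraries, such as Smad6, passed only through WT libraries. The direction of all such genes was therefore set by the filter, and the counts of this and the following lists include them. Of 24 tested Treg genes 13 were called higher (54.2%) and 7 lower (29.2%), and 11 and 6 changed at least 2-fold (median 0.58). Foxp3 and Ikzf4, its partner of the Ikaros family, fell, while suppressive effector genes such as Il10 and Entpd1, which encodes the ectoenzyme CD39 (8.25 ± 1.47 FPKM in Bach2KO and 1.70 ± 0.227 FPKM in WT cells), rose. Nrp1, a semaphorin receptor gene of Treg cells, had 4.53, 7.11 and 3.54 FPKM in Bach2KO libraries, against 17.2, 17.3 and 19.1 FPKM in WT libraries. Of 20 tested Th1 genes 17 were called higher and 1 lower, and 17 were at least 2-fold higher and 0 lower (median 3.28). Of 14 tested Th2 genes 12 were called higher and 1 lower, and 8 were at least 2-fold higher and 1 lower (median 1.65). Of 16 tested Th17 genes 6 were at least 2-fold higher and 4 lower (median 0.23), and of 17 tested cytotoxic genes 7 were higher and 3 lower by that measure (median 0.24). Naive and memory T cell genes, 35 in number, were called lower in 29 cases and higher in 4, with 20 and 2 changed at least 2-fold (median −1.35). Bach2 itself, the gene that the genotype names, is in this list and counted among the 29 and the 20. Klf2, the factor that keeps homing genes on in naive cells, had 100.4, 84.2 and 96.2 FPKM in Bach2KO libraries, against 242, 261 and 235 FPKM in WT libraries, and Pik3ip1, an inhibitor of PI3 kinase, had 19.8, 10.3 and 22.1 FPKM in Bach2KO libraries, against 87.1, 91.9 and 86.1 FPKM in WT libraries. Actn1, an actinin gene of the same list, had 36.9, 30.6 and 32.1 FPKM in Bach2KO libraries, against 175, 184 and 163 FPKM in WT libraries. Factors that share the binding site of Bach2 (AP-1, CNC and small Maf) were at least 2-fold higher in 9 of 16 tested cases and lower in 1 (median 1.09). Jund had 251 ± 14.2 FPKM in Bach2KO and 74.8 ± 3.66 FPKM in WT cells, and Maff, a small Maf gene, had 3.74 ± 0.147 FPKM in Bach2KO and 1.19 ± 0.0672 FPKM in WT cells.

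Cytokine genes changed mostly upwards. Of 34 interleukin and secreted cytokine genes listed, 19 passed the filter on low values, of which 16 were called higher and 1 lower, and 13 and 1 changed at least 2-fold. A gene near 0 FPKM in WT passed the filter only when high enough in Bach2KO, so such counts are not counts over all listed genes. Lta, the lymphotoxin alpha gene, had 298, 503 and 242 FPKM in Bach2KO libraries, against 55.1, 50.9 and 60.5 FPKM in WT libraries. Il2, the T cell growth factor gene, had 2.63 ± 0.978 FPKM in Bach2KO and 0.387 ± 0.162 FPKM in WT cells, and Osm, an IL-6 family cytokine gene, had 16.6 ± 6.52 FPKM in Bach2KO and 6.48 ± 0.400 FPKM in WT cells. Ebi3, which encodes a shared chain of IL-27 and IL-35, had 18.2 ± 3.75 FPKM in Bach2KO and 2.57 ± 1.18 FPKM in WT cells. Il16, a chemoattractant cytokine gene, was the member that fell, with 40.5, 34.6 and 41.8 FPKM in Bach2KO libraries, against 86.7, 86.5 and 86.4 FPKM in WT libraries.

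Of 31 tested cytokine receptor chains 14 were called higher (45.2%) and 10 lower (32.3%), near the 42.2% and 34.5% of all loci, and 9 and 4 changed at least 2-fold; their median log2 difference was 0.15, near that of all loci, and it turned to −0.12 with equal sums and −0.022 with quantile normalization. Chains of the IL-2, IL-4, IL-12 and IL-15 receptors were among the rises. Il2ra, the high-affinity IL-2 receptor chain, had 288, 379.8 and 268 FPKM in Bach2KO libraries, against 72.2, 68.0 and 95.5 FPKM in WT libraries, and Il15ra had 11.5 ± 2.30 FPKM in Bach2KO and 3.01 ± 0.606 FPKM in WT cells. Il12rb1, the chain shared by the IL-12 and IL-23 receptors, had 38.7 ± 3.23 FPKM in Bach2KO and 2.74 ± 0.527 FPKM in WT cells. Il6ra and Il6st, the 2 chains that form the IL-6 receptor, both fell. Il6ra had 23.8, 22.3 and 21.4 FPKM in Bach2KO libraries, against 105, 103 and 103 FPKM in WT libraries, and Il6st, the signal-transducing chain gp130, had 10.3, 9.43 and 10.7 FPKM in Bach2KO libraries, against 50.5, 45.7 and 47.1 FPKM in WT libraries. Il17ra (−1.16) and Tgfbr2 (−1.01) fell too.

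The TNF family rose more broadly. Of 28 tested ligands and receptors 18 were called higher and 4 lower, and 12 and 3 changed at least 2-fold, with a median of 0.75. Among the ligands, Tnf had 34.2, 51.4 and 27.6 FPKM in Bach2KO libraries, against 2.95, 2.10 and 3.66 FPKM in WT libraries, and Tnfsf11, which encodes RANKL, had 17.2 ± 3.52 FPKM in Bach2KO and 3.78 ± 0.620 FPKM in WT cells. Tnfsf4, the OX40 ligand gene, had 5.47 ± 2.14 FPKM in Bach2KO and 0.765 ± 0.113 FPKM in WT cells. Its receptor gene Tnfrsf4 had 159.8, 174 and 155 FPKM in Bach2KO libraries, against 41.2, 35.6 and 48.4 FPKM in WT libraries, and Tnfrsf9, which encodes 4-1BB, had 37.9 ± 10.5 FPKM in Bach2KO and 10.1 ± 4.08 FPKM in WT cells. Tnfrsf8, which encodes CD30, had 4.397 ± 1.75 FPKM in Bach2KO and 0.107 ± 0.0115 FPKM in WT cells. Members with roles in resting or helper T cells went the other way. Cd27 had 75.1, 61.3 and 79.6 FPKM in Bach2KO libraries, against 191, 191 and 187 FPKM in WT libraries, Cd40lg fell by 1.17 and Tnfrsf14, which encodes HVEM, by 1.30.

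Of 26 tested inhibitory and costimulatory receptors 10 were called higher (38.5%) and 7 lower (26.9%), against 42.2% and 34.5% of all loci, and 8 and 0 changed at least 2-fold; the median was 0.24, and −0.022 with quantile normalization. Besides Tigit, Lag3, an inhibitory receptor gene for MHC class II, had 10.8, 7.54 and 12.971 FPKM in Bach2KO libraries, against 1.95, 1.99 and 2.16 FPKM in WT libraries. Havcr2, which encodes TIM-3, had 4.87 ± 0.186 FPKM in Bach2KO and 0.0124 ± 0.0125 FPKM in WT cells. Cd274 and Pdcd1lg2, the genes of both ligands of PD-1, had rises of 1.58 and 2.18, and the PD-1 gene Pdcd1 itself had 15.5 ± 2.38 FPKM in Bach2KO and 18.8 ± 2.94 FPKM in WT cells and was not called (limma adjusted p = 0.11), but it was called lower with equal sums (−0.54, limma adjusted p = 0.0075) and without Bach2KO replicate 2 (−0.39, limma adjusted p = 0.024). Ctla4, which varied among the Bach2KO libraries, had 167, 122 and 222 FPKM in Bach2KO libraries, against 125, 118 and 151 FPKM in WT libraries and was not called (limma adjusted p = 0.17). Without Bach2KO replicate 2 it was called higher (0.56, limma adjusted p = 0.0086). Btla (−0.71), Slamf1 (−0.56) and Cd96 (−0.49) fell by less than 2-fold, and the call of Slamf1 was lost without WT replicate 1 (limma adjusted p = 0.051).

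Factors of lineage choice changed in both directions. Of 44 tested lineage and effector transcription factors 27 were called higher and 11 lower, and 22 and 7 changed at least 2-fold (median 1.09). Prdm1, which encodes Blimp-1, had 6.84, 3.93 and 7.99 FPKM in Bach2KO libraries, against 0.301, 0.392 and 0.162 FPKM in WT libraries. Bcl6, its antagonist in T cells, had 4.87, 2.91 and 6.65 FPKM in Bach2KO libraries, against 12.2, 12.4 and 12.8 FPKM in WT libraries. The pair moved in opposite directions, and so did the inhibitors of E proteins Id2 (55.7 ± 4.92 FPKM in Bach2KO and 17.0 ± 1.75 FPKM in WT cells) and Id3 (17.7 ± 4.85 FPKM in Bach2KO and 46.9 ± 1.97 FPKM in WT cells). Irf4 and Batf, partners on composite AP-1 sites, rose by 2.56 and 1.56, and Batf3 had 9.89 ± 4.56 FPKM in Bach2KO and 0.0212 ± 0.0367 FPKM in WT cells. Irf8 had 137 ± 26.5 FPKM in Bach2KO and 20.9 ± 4.54 FPKM in WT cells, Bhlhe40 had 70.4 ± 5.00 FPKM in Bach2KO and 10.3 ± 0.588 FPKM in WT cells and Nfil3 had 16.5 ± 5.95 FPKM in Bach2KO and 0.921 ± 0.205 FPKM in WT cells. The immediate early genes Egr1, Egr2 and Egr3 rose by 1.49, 1.51 and 1.79. Sox4 fell the most of the list, with 0.694, 0.911 and 0.628 FPKM in Bach2KO libraries, against 14.8, 17.1 and 14.9 FPKM in WT libraries. Tox (−1.29), Maf (−1.65) and Pou2af1 (−1.12) fell as well.

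Feedback inhibitors of signalling changed in both directions. Of 35 tested feedback inhibitors 21 were called higher and 9 lower, and 9 and 4 changed at least 2-fold (median 0.49). Socs1 and Cish, inhibitors of cytokine receptor signals through STAT proteins, stood out. Socs1 had 162, 181 and 141 FPKM in Bach2KO libraries, against 14.8, 15.5 and 16.1 FPKM in WT libraries, and Cish had 209.8, 232 and 193 FPKM in Bach2KO libraries, against 27.4, 31.8 and 31.7 FPKM in WT libraries. Dusp5 and Dusp6, phosphatase genes acting on ERK kinases, rose by 2.54 and 1.53, while Spry1, which restrains the same pathway upstream, had 3.97, 8.86 and 3.32 FPKM in Bach2KO libraries, against 13.6, 12.5 and 15.5 FPKM in WT libraries. Smad7, the inhibitory SMAD induced by TGF-β, had 15.8, 15.7 and 13.7 FPKM in Bach2KO libraries, against 66.7, 69.9 and 63.6 FPKM in WT libraries. By the rule for genes changed at least 2-fold, the Bach2KO values of Smad7 all lay below the lowest WT value.

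The TGF-β pathway as listed had 28 tested members, of which 8 were called higher and 15 lower, and 4 and 7 changed at least 2-fold (median −0.38). Receptor and transducer genes among the falls were Tgfbr2 (65.7 ± 2.91 FPKM in Bach2KO and 133 ± 9.77 FPKM in WT cells), Smad5 (4.38 ± 0.397 FPKM in Bach2KO and 9.39 ± 0.167 FPKM in WT cells) and Smad4 (−0.60 on the log2 scale). Smad3, which carries the TGF-β signal to the nucleus, fell by 0.27. The inhibitors of the pathway that fell included Smad7, the corepressor genes Skil (−1.03) and Tgif1 (−1.22) and Smad6 (0.139 ± 0.0389 FPKM in Bach2KO and 1.20 ± 0.260 FPKM in WT cells). Lrrc32, which encodes GARP, the anchor of latent TGF-β on Treg cells, had 31.7, 46.1 and 25.4 FPKM in Bach2KO libraries, against 6.399, 6.23 and 8.49 FPKM in WT libraries. Acvrl1, a type I receptor gene of the TGF-β family, had 11.5 ± 5.10 FPKM in Bach2KO and 1.41 ± 0.0940 FPKM in WT cells.

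Of 24 tested Wnt and Notch pathway genes 7 were called higher (29.2%) and 13 lower (54.2%), against 42.2% and 34.5% of all loci. At least 2-fold higher and lower were 3 and 4 (median −0.27). Tcf7 and Lef1, the nuclear factors of Wnt signals in naive T cells, fell by 1.48 and 0.75. Rbpj, the DNA-binding partner of Notch, had 83.7, 74.7 and 84.4 FPKM in Bach2KO libraries, against 13.8, 13.5 and 15.3 FPKM in WT libraries, and Notch1 had 32.9 ± 1.39 FPKM in Bach2KO and 12.9 ± 0.532 FPKM in WT cells. The Notch ligand gene Jag2 fell by 1.75.

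Proximal T cell receptor genes changed little in size. Of 37 tested, 10 were called higher and 19 lower, but 2 and 4 changed at least 2-fold, and the median was −0.16. With equal sums 5 were called higher and 24 lower (median −0.43). Lck and Fyn, the Src family kinases of the receptor, fell, with log2 differences of −0.55 and −0.76. Larger falls included those of Dgka, Ubash3b and Grap2. Dgka, the diacylglycerol kinase alpha gene, had 219, 199.5 and 225 FPKM in Bach2KO libraries, against 642, 654 and 635 FPKM in WT libraries. Ubash3b, which encodes the phosphatase Sts-1, had 10.999 ± 0.455 FPKM in Bach2KO and 34.2 ± 1.83 FPKM in WT cells, and the adaptor gene Grap2 had 70.2 ± 5.42 FPKM in Bach2KO and 174 ± 5.83 FPKM in WT cells. Malt1, the paracaspase gene of the NF-κB branch, had 69.6 ± 8.29 FPKM in Bach2KO and 28.5 ± 2.05 FPKM in WT cells, and Sla, an adaptor gene that lowers surface receptor, had 78.3 ± 17.4 FPKM in Bach2KO and 30.3 ± 1.41 FPKM in WT cells.

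Of 18 tested chemokine and homing receptors 9 were called higher (50%) and 7 lower (38.9%), near the 42.2% and 34.5% of all loci, and 8 and 5 changed at least 2-fold; the median was 0.31, and −0.028 over genes averaging 2 FPKM or more. Cxcr3, a receptor gene of T cells in inflamed tissue, had 63.4, 50.9 and 65.9 FPKM in Bach2KO libraries, against 2.27, 1.84 and 2.61 FPKM in WT libraries, and Cxcr6 had 19.4 ± 6.39 FPKM in Bach2KO and 4.11 ± 0.701 FPKM in WT cells. S1pr1, the receptor for sphingosine 1-phosphate by which T cells leave lymph nodes, had 90.0, 60.8 and 86.3 FPKM in Bach2KO libraries, against 277, 276 and 271 FPKM in WT libraries, and Cxcr5, the follicle receptor, had 1.27 ± 0.127 FPKM in Bach2KO and 8.64 ± 1.38 FPKM in WT cells. Gpr183, a receptor for oxysterols, rose by 2.55.

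Among 21 tested integrin and adhesion genes 10 were called higher (47.6%) and 9 lower (42.9%), near the 42.2% and 34.5% of all loci. At least 2-fold higher and lower were 3 and 5. The median was 0.17, and −0.099 with equal sums. Icam1 had 34.4 ± 8.001 FPKM in Bach2KO and 7.92 ± 0.963 FPKM in WT cells, and Itgb1, the integrin beta 1 chain, had 27.2 ± 6.85 FPKM in Bach2KO and 11.8 ± 0.940 FPKM in WT cells. Itga4 and Itga6, alpha chains that pair with beta 1, fell by 1.84 and 1.60. Itgae, the alpha E chain that TGF-β is known to induce, had 35.7, 44.7 and 31.7 FPKM in Bach2KO libraries, against 91.1, 108 and 71.2 FPKM in WT libraries. Pecam1 had 24.6 ± 1.44 FPKM in Bach2KO and 66.1 ± 1.22 FPKM in WT cells.

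Sugar-modifying enzymes were lower more often than higher. Of 31 tested glycosyltransferase genes 11 were called higher (35.5%) and 15 lower (48.4%), against 42.2% and 34.5% of all loci. At least 2-fold higher and lower were 5 and 9. The median was −0.13, against 0.074 for all loci. Fut7 and Fut4, fucosyltransferase genes of selectin ligands, rose: Fut7 had 20.1, 23.5 and 19.8 FPKM in Bach2KO libraries, against 5.98, 6.28 and 7.95 FPKM in WT libraries. Sialyltransferase genes went both ways, with rises of 0.44, 1.01 and 0.84 for St3gal4, St6galnac4 and St6galnac6. St6gal1 had 48.9, 37.8 and 53.8 FPKM in Bach2KO libraries, against 136, 135 and 126 FPKM in WT libraries, St8sia1 had 17.1 ± 0.209 FPKM in Bach2KO and 56.0 ± 4.13 FPKM in WT cells and St3gal1 had 7.46 ± 0.337 FPKM in Bach2KO and 17.8 ± 0.507 FPKM in WT cells. Hs3st3b1, a heparan sulfate sulfotransferase gene, had 1.54 ± 0.128 FPKM in Bach2KO and 9.08 ± 0.676 FPKM in WT cells, and Galnt10, which starts mucin-type chains, had 19.4 ± 1.94 FPKM in Bach2KO and 69.6 ± 3.46 FPKM in WT cells.

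**Figure D3:**
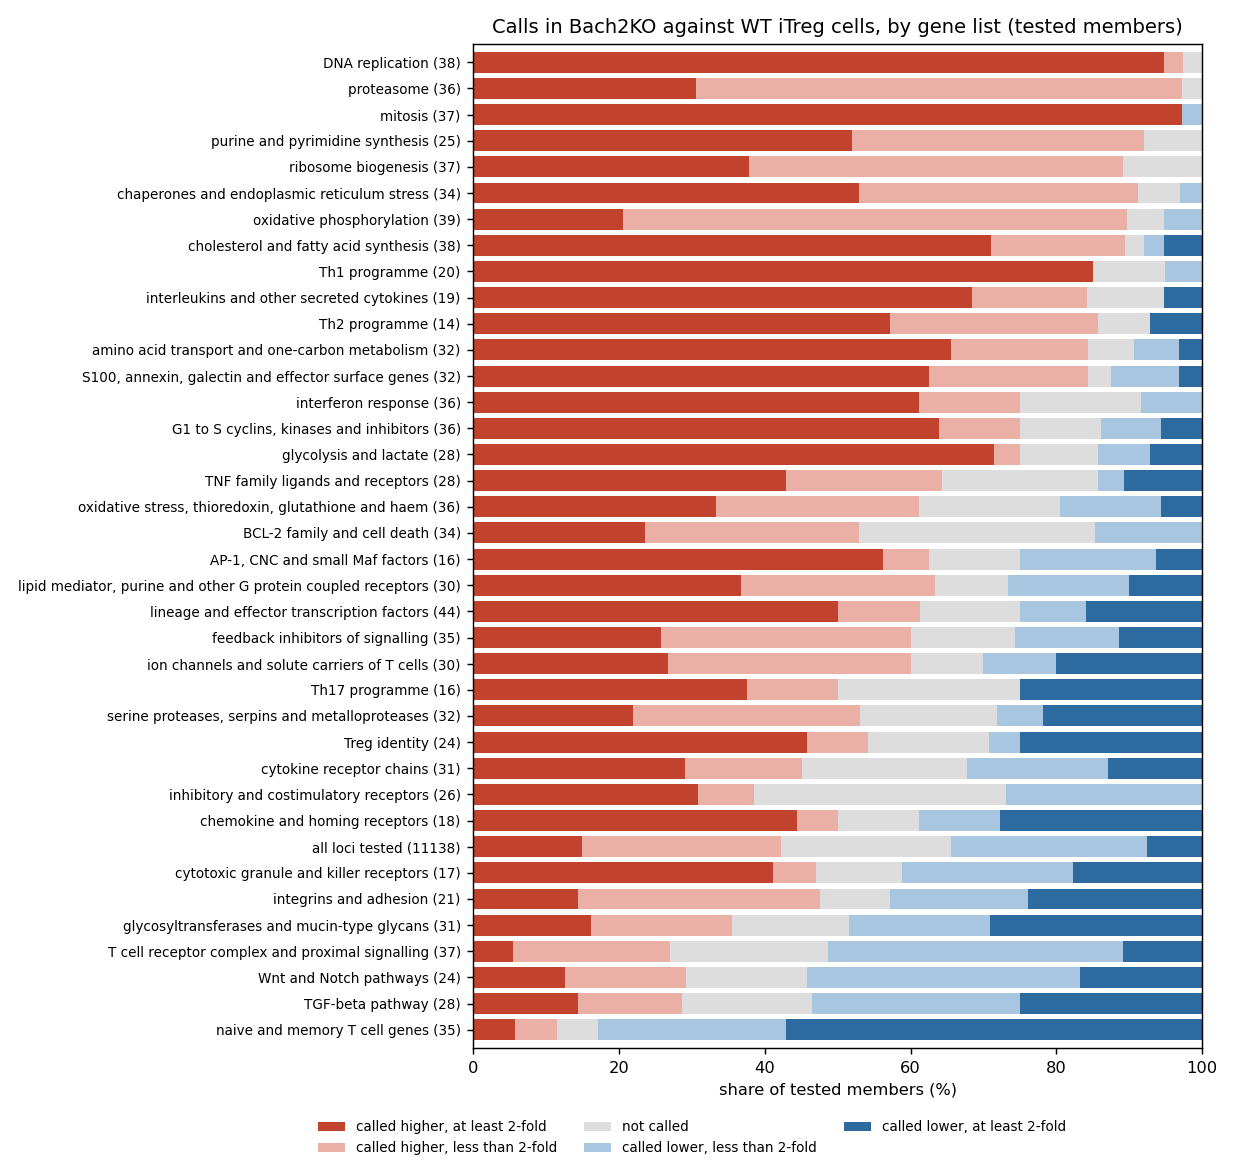
Share of tested members (number in brackets) of each gene list that were called by limma, higher in Bach2KO in red and lower in blue, with full colour for changes of at least 2-fold with no overlap and pale colour for smaller ones, beside all 11138 loci. Red covers nearly all of the replication and mitosis lists (36 of 38 and 36 of 37 members at least 2-fold higher). Full blue is widest in the naive and memory T cell list (20 of 35 at least 2-fold lower, Bach2 itself among them).

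Nearly all DNA replication and mitosis genes rose. Of 38 tested DNA replication genes 37 were called higher and 0 lower, and 36 changed at least 2-fold (median 2.47). Rpa1, the remaining member, had 102 ± 2.83 FPKM in Bach2KO and 99.0 ± 5.97 FPKM in WT cells. Rrm2, the ribonucleotide reductase subunit gene, had 143, 153 and 138 FPKM in Bach2KO libraries, against 9.94, 10.3 and 11.7 FPKM in WT libraries, and Uhrf1, which maintains DNA methylation through replication, had 86.1 ± 9.37 FPKM in Bach2KO and 5.55 ± 1.06 FPKM in WT cells. Of 37 mitosis genes 36 were called higher and 1 lower, and 36 changed at least 2-fold (median 3.35). Aurkb had 67.3, 68.5 and 74.2 FPKM in Bach2KO libraries, against 4.37, 4.54 and 5.28 FPKM in WT libraries, Mki67, the proliferation marker, had 121 ± 4.31 FPKM in Bach2KO and 9.501 ± 0.534 FPKM in WT cells, and Pttg1, which encodes securin, was the one called lower (15.1 ± 0.555 FPKM in Bach2KO and 18.1 ± 1.18 FPKM in WT cells). Relative to all loci the replication median was 2.40 as deposited and 2.39 with equal sums.

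The step that commits cells to replication held both accelerators and inhibitors. Of 36 tested genes of the G1 to S step 27 were called higher and 5 lower, and 23 and 2 changed at least 2-fold (median 1.496). With equal sums 25 were called higher and 9 lower. Cdk6 had 26.4, 31.5 and 23.7 FPKM in Bach2KO libraries, against 1.37, 1.01 and 2.14 FPKM in WT libraries, and Ccnd2, a cyclin D gene, had 78.7 ± 16.6 FPKM in Bach2KO and 27.2 ± 3.14 FPKM in WT cells. E2f1 and E2f8 rose by 2.56 and 3.29. Of the kinase inhibitors, Cdkn1a and Cdkn2c (20.1 ± 1.96 FPKM in Bach2KO and 4.68 ± 0.650 FPKM in WT cells) rose. Cdkn1b, which encodes p27, had 45.4, 31.6 and 52.0 FPKM in Bach2KO libraries, against 76.6, 78.4 and 71.9 FPKM in WT libraries and fell by less than 2-fold. Sesn1, a stress sensor gene and target of FoxO factors, had 23.1 ± 1.42 FPKM in Bach2KO and 104 ± 2.96 FPKM in WT cells.

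Biosynthetic genes rose with smaller folds. Of 25 purine and pyrimidine synthesis genes 23 were called higher and 0 lower, and 13 changed at least 2-fold (median 1.00). Ctps, the CTP synthase gene, had 17.1 ± 4.79 FPKM in Bach2KO and 4.92 ± 1.14 FPKM in WT cells, and Cad, the first enzyme of pyrimidine synthesis, had 25.7 ± 6.28 FPKM in Bach2KO and 8.65 ± 1.38 FPKM in WT cells. Of 32 amino acid transport and one-carbon genes 27 were called higher and 3 lower, and 21 and 1 changed at least 2-fold (median 1.26). Psat1, of serine synthesis, had 55.3, 62.0 and 54.3 FPKM in Bach2KO libraries, against 5.57, 5.18 and 7.60 FPKM in WT libraries, and Slc7a5, the large neutral amino acid transporter, had 51.9, 66.2 and 43.5 FPKM in Bach2KO libraries, against 11.3, 10.5 and 14.5 FPKM in WT libraries. Asns, the asparagine synthetase gene, had 8.56 ± 1.38 FPKM in Bach2KO and 0.594 ± 0.323 FPKM in WT cells. Slc6a6, a taurine transporter gene, fell by 1.18.

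Ribosome biogenesis genes were called higher in 33 of 37 cases and lower in 0, and 14 changed at least 2-fold (median 0.88); with equal sums 27 were higher and 1 lower. Nop56 had 102, 138 and 79.9 FPKM in Bach2KO libraries, against 38.4, 35.2 and 44.7 FPKM in WT libraries, and Bysl had 11.7 ± 2.98 FPKM in Bach2KO and 3.68 ± 0.894 FPKM in WT cells. Proteasome genes were called higher in 35 of 36 cases, and 11 changed at least 2-fold (median 0.87). The largest was Psmb9, an immunoproteasome subunit, with 327, 346 and 314 FPKM in Bach2KO libraries, against 98.6, 86.9 and 95.5 FPKM in WT libraries. Oxidative phosphorylation genes were called higher in 35 of 39 cases and lower in 2, and 8 changed at least 2-fold (median 0.65); with equal sums 28 were higher and 3 lower. Cox5a, a cytochrome oxidase subunit gene, had 181 ± 14.9 FPKM in Bach2KO and 65.8 ± 5.40 FPKM in WT cells. Chaperone and endoplasmic reticulum genes were called higher in 31 of 34 cases and lower in 1, and 18 changed at least 2-fold (median 1.01). Xbp1, the factor of the unfolded protein response, had 174, 166 and 161 FPKM in Bach2KO libraries, against 20.0, 18.1 and 19.2 FPKM in WT libraries, and Sdf2l1, one of its endoplasmic reticulum targets, had 39.2 ± 4.98 FPKM in Bach2KO and 5.21 ± 1.43 FPKM in WT cells.

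Carbon metabolism pointed the same way with exceptions. Of 28 tested glycolysis and lactate genes 21 were called higher and 4 lower, and 20 and 2 changed at least 2-fold (median 2.26). Slc16a3, which exports lactate, had 79.7, 56.7 and 103 FPKM in Bach2KO libraries, against 2.58, 2.57 and 3.25 FPKM in WT libraries, and Hk2, the inducible hexokinase, had 16.6 ± 2.02 FPKM in Bach2KO and 0.493 ± 0.259 FPKM in WT cells. Pdk2, a kinase that turns off pyruvate dehydrogenase, had 4.04 ± 0.522 FPKM in Bach2KO and 14.7 ± 0.557 FPKM in WT cells. Only uniquely mapped reads were used, per the labels, so values of genes with near-identical pseudogenes such as Gapdh are uncertain (102 ± 11.5 FPKM in Bach2KO and 10.3 ± 0.683 FPKM in WT cells). Of 38 tested cholesterol and fatty acid genes 34 were called higher and 3 lower, and 27 and 2 changed at least 2-fold (median 1.89). The desaturase gene Scd2 had 303, 241 and 353 FPKM in Bach2KO libraries, against 14.3, 12.4 and 17.6 FPKM in WT libraries. Abca1, which exports cholesterol, and Acss2, an acetyl-CoA synthetase gene, were lower. Abca1 had 1.51 ± 0.0887 FPKM in Bach2KO and 6.02 ± 0.129 FPKM in WT cells, and Acss2 had 9.41 ± 1.79 FPKM in Bach2KO and 32.7 ± 2.99 FPKM in WT cells.

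Redox and haem genes were mixed. Of 36 tested, 22 were called higher and 7 lower, and 12 and 2 changed at least 2-fold (median 0.39). With equal sums 17 were called higher and 11 lower. Hmox1, the haem oxygenase gene and a textbook target of repression by the related factor Bach1, had 4.65, 2.98 and 5.65 FPKM in Bach2KO libraries, against 0.277, 0.681 and 0.360 FPKM in WT libraries. Bach1 itself was called lower in Bach2KO cells, with a log2 difference of −0.65 (limma adjusted p = 2.0e-04), and its part in the Hmox1 level was not tested. Tfrc, the transferrin receptor gene, had 114 ± 4.41 FPKM in Bach2KO and 13.5 ± 2.39 FPKM in WT cells, and Txnip, an inhibitor of thioredoxin and of glucose uptake, had 125, 89.7 and 129 FPKM in Bach2KO libraries, against 367, 366 and 341.5 FPKM in WT libraries. Txnip fell while Txn1, the thioredoxin gene, rose by 2.15.

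Of 34 tested genes of survival and cell death 18 were called higher (52.9%) and 5 lower (14.7%), against 42.2% and 34.5% of all loci. At least 2-fold higher and lower were 8 and 0 (median 0.51). With equal sums 16 were called higher and 13 lower (median 0.25). Bcl2l1, which encodes the protective protein BCL-xL, had 62.6, 69.8 and 50.4 FPKM in Bach2KO libraries, against 9.60, 9.24 and 12.8 FPKM in WT libraries. Bak1, a pore-forming effector gene, had 42.7 ± 1.71 FPKM in Bach2KO and 17.8 ± 0.642 FPKM in WT cells. Mcl1, a short-lived protective family member, fell by 0.48.

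Interferon-induced GTPases and guanylate-binding proteins rose together. Of 36 tested interferon response genes 27 were called higher and 3 lower, and 22 and 0 changed at least 2-fold (median 1.43). Gbp6 had 70.7, 88.6 and 64.9 FPKM in Bach2KO libraries, against 4.34, 3.63 and 5.12 FPKM in WT libraries, Iigp1 had 109.7 ± 15.8 FPKM in Bach2KO and 9.58 ± 3.26 FPKM in WT cells and Igtp had 393, 471 and 351 FPKM in Bach2KO libraries, against 60.6, 49.9 and 75.7 FPKM in WT libraries. These are genes that interferon gamma is known to induce. Genes known chiefly as targets of type I interferon did not change alike: Oas3 rose by 3.40, while Ifit2 and Usp18 fell by 0.45 and 0.64.

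Calcium-binding, cytoskeletal and surface genes of effector cells rose. Of 32 tested S100, annexin, galectin and related genes 27 were called higher and 4 lower, and 20 and 1 changed at least 2-fold (median 1.37). Anxa2 had 135, 100.8 and 160.4 FPKM in Bach2KO libraries, against 4.65, 6.03 and 5.06 FPKM in WT libraries, S100a4 had 40.8, 59.2 and 33.4 FPKM in Bach2KO libraries, against 4.94, 7.55 and 5.75 FPKM in WT libraries and Vim, the vimentin gene, had 1484 ± 102 FPKM in Bach2KO and 368 ± 28.8 FPKM in WT cells. Ly6d, which was uneven among the WT libraries, was the one at least 2-fold lower, with 1.23, 1.70 and 0.803 FPKM in Bach2KO libraries, against 16.8, 1.79 and 9.37 FPKM in WT libraries. Its WT values were highest in replicate 1 and lowest in replicate 2, as were the summed B cell markers and the summed dendritic cell and MHC class II markers given above, and their part in the Ly6d value was not tested. The limma call of Ly6d was lost without Bach2KO replicate 1 or 3 (adjusted p = 0.06 and 0.059) and without WT replicate 1 or 3 (adjusted p = 0.07 and 0.082).

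Proteases and their inhibitors were led by serpins. Of 32 tested, 17 were called higher (53.1%) and 9 lower (28.1%), against 42.2% and 34.5% of all loci. At least 2-fold higher and lower were 7 and 7 (median 0.28). Serpina3g and Serpina3f, whose loci overlap and whose family holds near-identical copies, had 60.7 ± 7.07 FPKM in Bach2KO and 0.828 ± 0.659 FPKM in WT cells for Serpina3g and 20.7 ± 2.95 FPKM in Bach2KO and 0.126 ± 0.159 FPKM in WT cells for Serpina3f. Serpinb9, an inhibitor of granzyme B, had 10.3 ± 2.05 FPKM in Bach2KO and 4.55 ± 0.200 FPKM in WT cells, beside Gzmb itself (33.6, 21.5 and 36.7 FPKM in Bach2KO libraries, against 0.0783, 0.0532 and 0 FPKM in WT libraries). Adam8, a membrane metalloprotease gene, had 12.1 ± 1.10 FPKM in Bach2KO and 0.501 ± 0.0902 FPKM in WT cells. Adamts6, a secreted metalloprotease gene, had 7.21, 8.71 and 6.44 FPKM in Bach2KO libraries, against 42.7, 45.5 and 42.7 FPKM in WT libraries, and the lysosomal cathepsin genes Ctss and Ctsl fell by 1.15 and 1.54.

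Receptors for lipids and purines and ion channels gave a few large changes. Of 30 tested G protein coupled and purine receptors 19 were called higher and 8 lower, and 11 and 3 changed at least 2-fold (median 0.55). P2rx7, the ATP-gated channel gene, had 17.8, 9.36 and 19.9 FPKM in Bach2KO libraries, against 3.51, 2.42 and 4.86 FPKM in WT libraries, and Ptger4, a prostaglandin E2 receptor gene, had 32.7 ± 10.2 FPKM in Bach2KO and 15.2 ± 0.957 FPKM in WT cells. Of 30 tested channel and carrier genes 18 were called higher and 9 lower, and 8 and 6 changed at least 2-fold (median 0.37). Kcnk5, a potassium channel gene, had 14.3, 11.7 and 12.5 FPKM in Bach2KO libraries, against 0.420, 0.428 and 0.312 FPKM in WT libraries, and Atp2b4, a plasma membrane calcium pump gene, had 23.6, 20.2 and 29.6 FPKM in Bach2KO libraries, against 0.969, 1.45 and 1.41 FPKM in WT libraries. Orai2, a subunit gene of the store-operated calcium channel, had 19.4 ± 1.17 FPKM in Bach2KO and 54.7 ± 1.72 FPKM in WT cells, whereas Orai1, the main subunit, had 25.7 ± 1.62 FPKM in Bach2KO and 18.3 ± 0.299 FPKM in WT cells. Slc12a7, a potassium chloride cotransporter gene, had 18.1 ± 2.37 FPKM in Bach2KO and 93.5 ± 10.8 FPKM in WT cells, and Atp1b1, a sodium pump subunit gene, had 12.3 ± 4.89 FPKM in Bach2KO and 62.9 ± 2.35 FPKM in WT cells.

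Whether the changed genes are ones that differ between other CD4+ states was read from the single WT libraries, which had no part in choosing them. Th1 cells were cultured with IL-12, Th2 cells with IL-4 and Th17 cells with IL-6 and TGF-β1, each with neutralizing antibodies, and the naive cells were fresh. With 1 library a condition there is no spread and no test. Of the 1656 rises, 67.6% were at least 2-fold above naive in the Th1 library, against 26.4% of all loci. In the Th2 library the share was 67.6%, against 24.8% of all loci, and in the Th17 library 56.9%, against 22.4%. In all 3 stimulated libraries 809 of the rises were above naive (48.9%), against 15.1% of all loci. Of the 838 falls, 36.2% were at least 2-fold below naive in the Th1 library, against 9.23% of all loci. In the Th2 library the share was 41.3%, against 11.1%, and in the Th17 library 21.8%, against 6.72%. On the log2 scale the median rise stood above naive by 1.66 in the Th1 library, by 1.69 in the Th2 library and by 1.21 in the Th17 library, beside medians of 0.33, 0.24 and 0.33 for all loci in the same libraries.

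**Figure D4:**
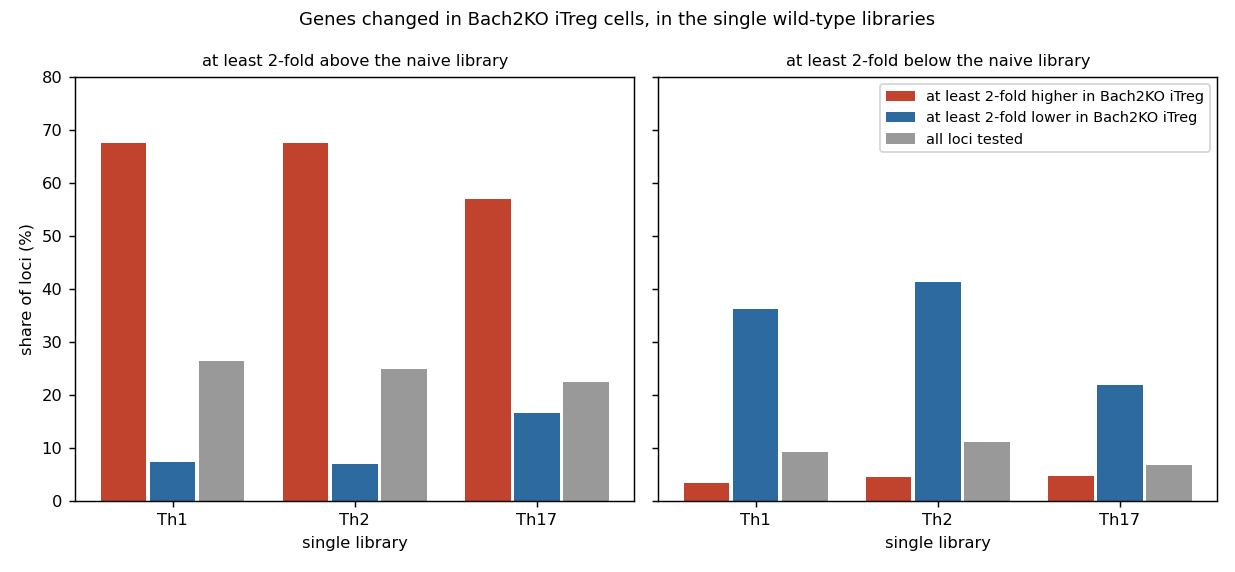
Share of loci at least 2-fold above (left) or below (right) the naive library in the single Th1, Th2 and Th17 libraries, for loci at least 2-fold higher in Bach2KO iTreg cells, at least 2-fold lower, and all 11138 loci. There is 1 library per condition and no error bar. The rises exceed all loci in the left panel in each library (67.6% against 26.4% in Th1), and the falls exceed them in the right panel (36.2% against 9.23% in Th1).

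The iTreg libraries and the single libraries differ in the genes of the sex chromosomes. Xist was between 0.00647 and 0.00922 FPKM in Bach2KO and at most 0.00949 FPKM in WT iTreg libraries, and between 48.7 and 156.2 FPKM in the 4 single libraries. The Y-linked gene Kdm5d was between 7.71 and 8.87 FPKM in Bach2KO and between 15.5 and 15.6 FPKM in WT iTreg libraries, and at 0 in the single ones. Sex and culture condition cannot be told apart between the iTreg and the single libraries, while the comparisons of helper with naive cells stand within libraries of one pattern.

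Some changed genes were low in all 4 single libraries. Of the rises 69 (4.17%) and of the falls 63 (7.52%) were under 1 FPKM in each of them, against 3.58% of all loci. The genes named here were chosen after their values were seen, as the largest changes with a mean of at least 5 FPKM in one genotype. Ccl1 was at 0 FPKM in all 4, and Il9 reached at most 0.774 FPKM there. Eomes, a T-box factor gene of cytotoxic cells, had 16.5, 19.6 and 14.6 FPKM in Bach2KO libraries, against 0.235, 0.113 and 0.167 FPKM in WT libraries and at most 0.572 FPKM in the single libraries. Cd36, a scavenger receptor gene for fatty acids, had 4.88, 6.89 and 4.84 FPKM in Bach2KO libraries, against 0.263, 0.0454 and 0.194 FPKM in WT libraries, and at most 0.0161 FPKM in the single libraries. Gzmc, a granzyme gene, had 5.61 ± 1.55 FPKM in Bach2KO and 0.0675 ± 0.0411 FPKM in WT cells. Among the falls, Adamtsl2 had 0.592, 0.855 and 0.214 FPKM in Bach2KO libraries, against 7.92, 10.0 and 8.69 FPKM in WT libraries and Cecr6 had 0.169, 0.373 and 0.0977 FPKM in Bach2KO libraries, against 7.42, 6.16 and 6.66 FPKM in WT libraries, while Bank1, a scaffold gene known from B cells, had 1.10 ± 0.275 FPKM in Bach2KO and 7.70 ± 1.12 FPKM in WT cells. Summed B cell markers also varied among the WT libraries, as given above, and their part in the Bank1 value was not tested.

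Bach2 peaks lay near many loci of every kind. A summit in the locus or within 10 kb was found for 61.7% of the loci at least 2-fold higher (1021 of 1656, 95% exact binomial interval 59.3 to 64%), for 64% of those at least 2-fold lower (536 of 838, 60.6 to 67.2%) and for 57.5% of the other loci (4970 of 8644, 56.4 to 58.5%). The intervals cover counting error over loci only, and there is 1 ChIP library. Long loci have more room for a peak, and the median locus was 16173 bp for the rises, 20535 bp for the falls and 20161 bp for the others. In loci of 0.3 to 10 kb the shares were 52.7% for the rises, 53.2% for the falls and 42.2% for the others. In loci over 100 kb they were 88% for the rises, 90.4% for the falls and 88.7% for the others. The intervals of rises and falls overlapped in each length class.

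**Figure D5:**
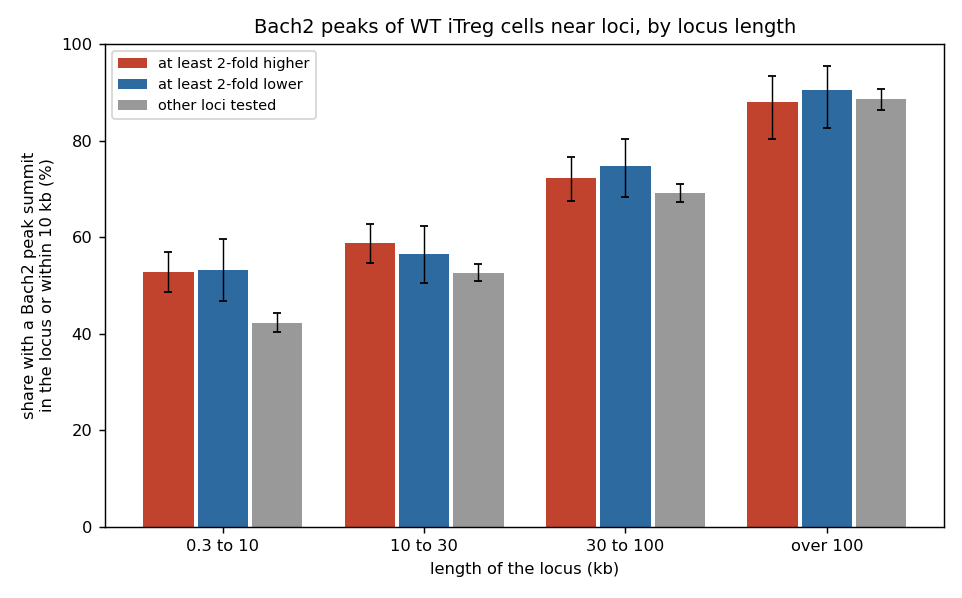
Share of loci with a Bach2 peak summit in the locus or within 10 kb, by length of the locus, for loci at least 2-fold higher, at least 2-fold lower and other loci, with 95% exact binomial intervals that cover counting error only. The gap between changed and other loci is widest in the shortest class (52.7% and 53.2% against 42.2%) and smallest in the longest (88% and 90.4% against 88.7%).

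The AP-1-like motif was common in the peaks and spread evenly over the groups. TGAGTCA or TGACTCA stood in the window of 50 bases on either side of the summit in 30.2% of 22494 peaks, against 1.98% of windows of the same length 1000 bases to the left. Among the 1000 peaks of highest score the share was 49.9%, against 1.6%. It was 29.4% in the 2263 peaks near rises (95% exact binomial interval 27.6 to 31.4%), 26.8% in the 1379 near falls (24.5 to 29.3%) and 28.6% in the 10046 near other loci (27.7 to 29.5%). One peak can lie near loci of several groups and is then counted in each.

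Loci near Bach2 on its chromosome were also counted apart. Within 10 Mb of Bach2, 13 of 56 tested loci changed at least 2-fold with no overlap (23.2%, 95% exact binomial interval 13 to 36.4%), 5 of them higher and 8 lower. On the rest of chromosome 4 it was 143 of 642 (22.3%), and on other chromosomes 2337 of 10439 (22.4%).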

How the data were processed

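Spliced reads of 50 bases were aligned to mm9 with TopHat, only unique ones were kept, and loci were quantified with Cufflinks, per the labels and the submitters' processing notes; the gene annotation and the strand of counting are not stated in the sources used here. The authors deposited FPKM values, with Cufflinks confidence bounds, for 23700 loci in each of 10 RNA libraries. ChIP and input reads were aligned with Bowtie per the submitters' processing notes, and 22494 peaks were called with MACS 1.4.0beta at a p-value of 1e-05 from 8992019 ChIP tags and 9999999 input tags, per the file headers. For each peak the authors deposited a count of tags, a score of 10 times the −log10 p-value, a fold enrichment as a ratio to local background, and a false discovery rate in percent.

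Loci averaging 0.5 FPKM or more across the 6 iTreg libraries, a length of at least 300 bp and no failed estimate were compared on log2(FPKM + 0.5), which understates the change of low genes, with limma 3.58.1 in R 4.3.3 (trend, two-sided, Benjamini-Hochberg adjustment over 11138 loci, threshold 0.05). This fit was tested on simulated data. Depth was read only from the Cufflinks bounds, so no counting error per gene is given. The 42 gene lists and the members were chosen with earlier results of these data known. Genes were named as Bach2, the 30 largest rises and 30 largest falls that were called with no overlap and at least 5 FPKM in the higher genotype (antigen receptor segments, small RNAs and predicted names left out), list members, and loci beside the 2-fold limit. Of 472 repeated symbols each row was kept as a locus. Windows reach 50 bases to either side of peak summits, read from the mm9 genome (NCBIM37) from the 6 highest-scored distinct peaks per direction, chromosome 18 left out. Some genes, 1 window and 1 further gene list are not reported here. Alternatives to scaling, pseudocount, filters, variance, replicate number, libraries, peak limits and fold were run. Pandas 2.3.3 and scipy 1.17.1 were used in Python 3.11.15.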

Additional observations from a re-analysis of the deposited data

How the results depend on the processing

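The counts over all loci kept within 1.5 times of those reported under all alternatives run, except that equal sums gave 1362 loci at least 2-fold lower, among them all 838 reported. Calls within gene lists moved more with the scaling. With equal sums, calls lower moved by over 1.5 times in 9 lists and calls higher in 1. They came to 13 lower against 5 as deposited among survival and cell death genes, 9 against 5 in the G1 to S list, 11 against 7 in the redox list, 5 against 3 in the amino acid list, 3 against 1 among chaperones and 2 against 1 among Th2 genes. Replication, purine and pyrimidine, and ribosome biogenesis lists had 1 lower against 0. In the T cell receptor list 5 were called higher against 10 as deposited. Among all list medians recomputed, 122 moved by more than the spread between replicates and 532 did not, besides those given below that changed sign. All 1228 loci at least 2-fold higher with equal sums were among the 1656 reported. Leaving out 1 library at a time gave 4303 to 4748 loci called higher, 3493 to 3949 called lower, 1574 to 1741 at least 2-fold higher and 779 to 898 at least 2-fold lower. Quantile normalization gave 3718 loci called higher and 4888 lower, or 43.2% of calls as rises, and median ratio scaling 4308 and 4277, or 50.2%. A pseudocount of 0.1 gave 1815 and 1019 loci at least 2-fold higher and lower, and a pseudocount of 1 gave 1459 and 694.

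With the replicate number as a block (replicate block), 4441 loci were called higher and 3578 lower, and 1656 and 838 were at least 2-fold changed. The deviations of same-numbered Bach2KO and WT libraries correlated at 0.105, −0.156 and −0.187, and not every library correlated best with its own number, so the pairing is of names only. With the block, 2 genes not called as reported passed the threshold: Ctla4 (0.34, limma adjusted p = 0.038) and Cd4 (0.20, limma adjusted p = 0.041).

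Among the genes named, 7 values changed sign. Cd4 turned to −0.077 with equal sums and −0.12 with quantile normalization, Ctla4 to −0.0058 with quantile normalization, and Rpa1 to −0.23 with equal sums, −0.28 with quantile normalization, −0.032 with median ratio scaling and −0.0026 without WT replicate 3, within a range of −0.0026 to 0.084 when single libraries were left out. Medians of lists turned as well: cytokine receptor chains to −0.12 with equal sums and −0.022 with quantile normalization, chemokine and homing receptors to −0.028 over loci averaging 2 FPKM or more, integrins and adhesion to −0.099 with equal sums and −0.095 with quantile normalization, inhibitory and costimulatory receptors to −0.022 with quantile normalization, and dendritic cell and MHC class II markers to −0.049 with equal sums, −0.065 without Bach2KO replicate 3 and −0.67 without WT replicate 2, within a range of −0.67 to 0.95 when single libraries were left out. The cause was not tested.

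Shares of loci with a peak moved with the limits. Within 50 kb they were 86.7% for loci at least 2-fold higher, 87.2% for those lower and 83.6% for the others. Inside the locus only they were 36.1% for higher, 41.3% for lower and 35.7% for other loci. With a deposited score of at least 100 they were 45.6% for higher, 43.6% for lower and 39.8% for other loci, and with a false discovery rate of at most 5% they were 58.5%, 59.7% and 54.3% for the same 3 groups. At 4-fold in place of 2-fold, 42.1% of the rises were above naive in the Th1 library, 43.1% in the Th2 library and 30.4% in the Th17 library, and 13.8% of the falls were below naive in the Th1 library, 18.6% in the Th2 library and 6.8% in the Th17 library.

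The files hold FPKM without counts, and whether the replicates are separate animals is not stated. There is 1 library for each of the naive, Th1, Th2, Th17, ChIP and input samples.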
